A study of Sus scrofa with 12 samples.

Results

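Chaperones and cochaperones of the endoplasmic reticulum (ER) were described in pig liver through 6 genes, HSPA5, HYOU1, DNAJC3, SDF2L1, MANF and CRELD2. Every probe set that the array's annotation assigns to one of these symbols was used, which gave 7 probe sets out of 24123, and 6 of the 5810 genes with a named, kept probe set. The 6 genes were selected from earlier results of the same arrays because their signals were higher in animals of high stress response, so for that contrast their values are given as a description without a test. Aggressiveness, its interaction with stress response, and sex played no part in the choice and were tested.

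The livers came from 12 adult German Landrace pigs, each measured on its own Affymetrix porcine array. The labels cross stress response with aggressiveness, each high or low. The 4 groups were high stress response with high aggressiveness, high with low, low with high, and low with low, and each held 3 animals, 1 female and 2 males. How the pigs were scored, and when the liver was taken relative to the scoring, is not stated in the labels, and no treatment is given that separates the groups. Animals are named in that order of labels, so that high-low 1 is the first animal of high stress response and low aggressiveness. The females were high-high 3, high-low 1, low-high 3 and low-low 1. The arrays of high-high 3, low-high 3 and high-low 3 had the lowest median correlations with the other arrays (0.954, 0.955 and 0.956, against 0.958 to 0.963 in the remaining 9). The main results that rest on them are also given without single animals, or without high-high 3 and high-low 3 together. No fit left out all 3 of these arrays.

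Secreted and membrane proteins fold in the ER with the help of HSPA5 (BiP), the ER member of the HSP70 family, which binds unfolded chains and releases them in a cycle of ATP binding and hydrolysis. When unfolded proteins accumulate, HSPA5 leaves the stress sensors IRE1, PERK and ATF6, and the unfolded protein response raises the transcription of chaperones through XBP1, ATF4 and the cleaved form of ATF6. Hepatocytes export most plasma proteins and carry a dense ER, and all 6 genes are known targets of this response in mammals.

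HSPA5 (probe set Ssc.1717.1.S1_at) had signals of 26470, 29800 and 33360 in the high-high animals and 28130, 23210 and 31410 in the high-low animals, against 21200, 21030 and 20360 in low-high and 23820, 20240 and 22450 in low-low animals. Of the 6 animals of high stress response, 5 lay above all 6 of low, and high-low 2 lay below low-low 1. The group of high stress response averaged 28730 ± 3625 and that of low stress response 21520 ± 1377 (SD over 6 animals each), and the log2 fold change was 0.41 ± 0.12 (SE). Signals are linear intensities scaled per array, and they can be compared between animals for one probe set but not between probe sets.

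HYOU1 (Ssc.2087.1.S1_at), the large HSP110-type chaperone of the ER, exchanges the nucleotide bound to HSPA5 and so frees its client. Its signals were 2780, 2563 and 4284 in the high-high animals and 3519, 2352 and 2332 in the high-low animals, against 1950, 1693 and 1569 in low-high and 2136, 1595 and 1434 in low-low animals. All 6 animals of high stress response lay above all 6 of low, and the females high-high 3 and high-low 1 were the highest. The log2 fold change was 0.75 ± 0.14 (SE), a ratio of 1.68.

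DNAJC3 (P58IPK) is a J protein that brings unfolded chains to HSPA5 and is also known as an inhibitor of PERK. The brighter of its probe sets, Ssc.21408.1.S1_at, had signals of 685, 783.3 and 897.5 in the high-high animals and 941.8, 679.1 and 851.6 in the high-low animals, against 595, 558.1 and 741.6 in low-high and 635.9, 581 and 561.8 in low-low animals. Here 4 of the 6 animals of high stress response lay above all animals of low, and the overlap came from low-high 3, which exceeded high-high 1 and high-low 2. The log2 fold change was 0.38 ± 0.11 (SE).

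The second DNAJC3 probe set, Ssc.21408.2.S1_at, did not follow the first. It had 225.4, 229.5 and 378.6 in the high-high animals and 268, 195.3 and 339.1 in the high-low animals, against 180.7, 216.6 and 334.2 in low-high and 358.8, 304.1 and 298.8 in low-low animals. The groups overlapped widely, 1 animal of high stress response lay above all of low, and the log2 fold change was -0.05 ± 0.17 (SE). With both probe sets averaged, the log2 fold change of DNAJC3 was 0.17. The part of the transcript that each probe set covers was not analysed here.

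SDF2L1 (Ssc.12412.1.A1_at) is an ER protein that forms a complex with the J protein DNAJB11 and HSPA5 and keeps clients soluble. Its signals were 4428, 3595 and 5463 in the high-high animals and 5244, 3834 and 3474 in the high-low animals, against 3309, 2878 and 1878 in low-high and 2960, 2842 and 2811 in low-low animals. The groups of stress response did not overlap, although the lowest animal of high stress response, high-low 3, was close to the highest of low, low-high 1. The log2 fold change was 0.64 ± 0.17 (SE), and the female low-high 3 lay well below the 5 other animals of low stress response.

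MANF (Ssc.20071.1.S1_at) binds HSPA5, slows its nucleotide exchange and is secreted when ER calcium falls. It had 9311, 10200 and 16520 in the high-high animals and 14440, 8940 and 10190 in the high-low animals, against 6729, 7304 and 6308 in low-high and 7831, 6680 and 6879 in low-low animals. The 6 animals of low stress response lay close together, with a coefficient of variation of 26.9% in the high group and 7.72% in the low group. The groups did not overlap, and the log2 fold change was 0.70 ± 0.14 (SE).

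CRELD2 (Ssc.5966.1.A1_at), an EGF-domain protein of the ER with disulfide isomerase activity, had the largest log2 fold change of the 6 genes, 0.89 ± 0.19 (SE), a ratio of 1.85. Its signals were 1830, 1860 and 3535 in the high-high animals and 3202, 1720 and 1896 in the high-low animals, against 1495, 1393 and 973.1 in low-high and 1293, 1124 and 1037 in low-low animals. The same pair of females, high-high 3 and high-low 1, stood apart at the top, and the other 4 animals of high stress response lay between 1720 and 1896.

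Thus 4 of the 6 genes had no overlap between high and low stress response, where 62 of 15999 tested probe sets (0.388%) had all 6 animals of high stress response above all 6 of low. The choice of the genes used this contrast, so nothing is read from that count. Over all 15999 probe sets none passed for stress response after adjustment (0%; limma, Benjamini-Hochberg adjusted p under 0.05) and 1305 had an unadjusted p under 0.05. In bulk liver RNA, a different share of ER-rich cells and a different amount of RNA per cell cannot be told apart.

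**Figure D1:**
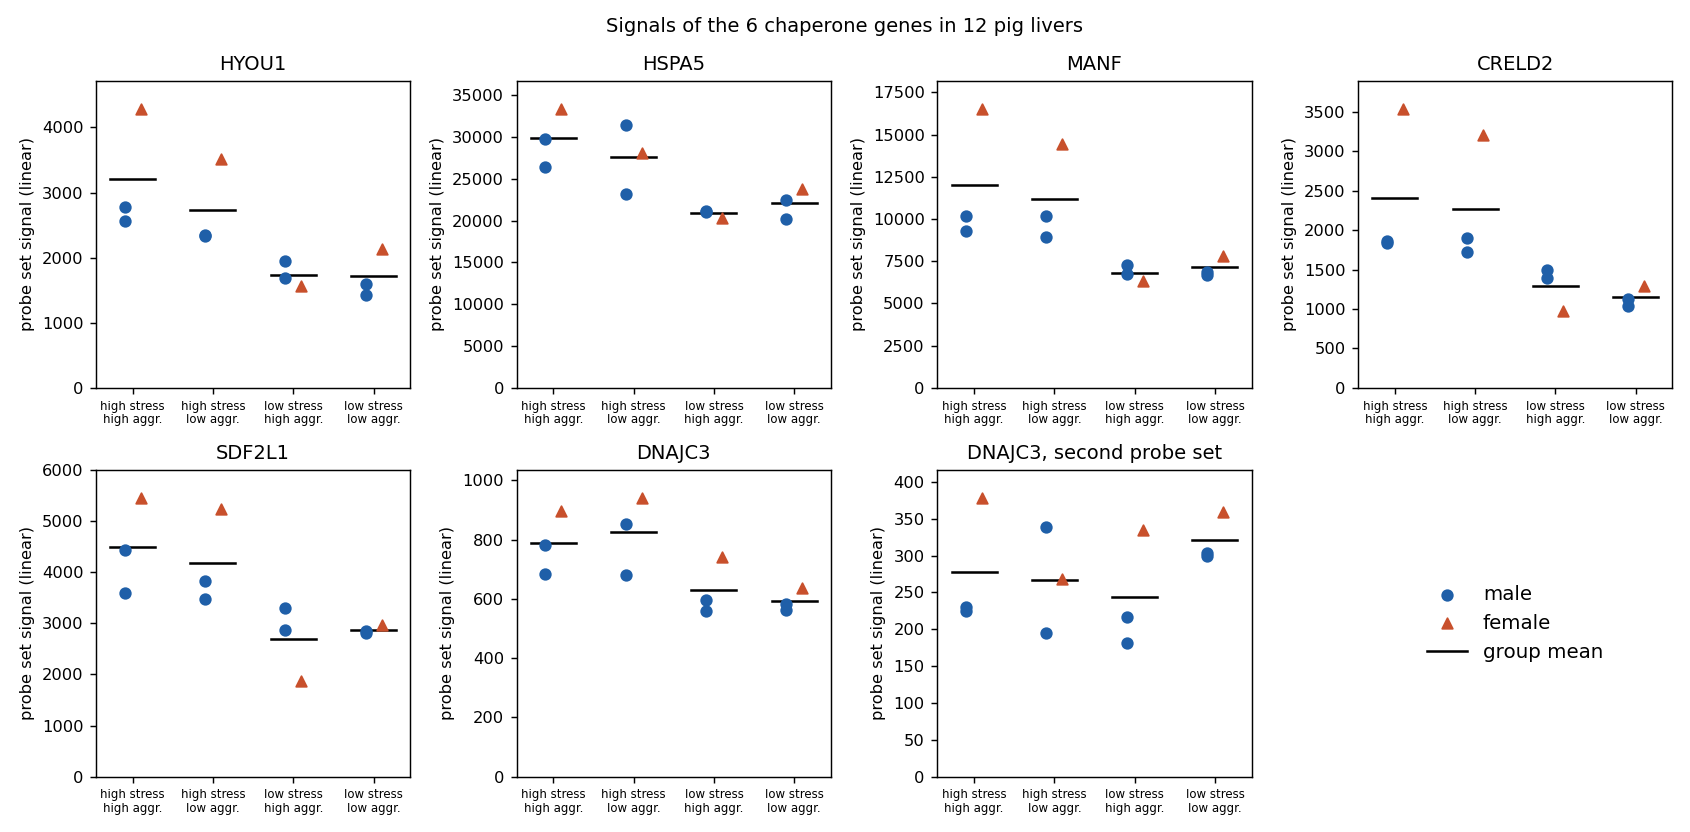
Probe set signal (linear intensity, y axis from 0) of the 6 genes and of the second DNAJC3 probe set in the 4 groups of stress response and aggressiveness. Each point is 1 animal, circles are males, triangles are females, and the bar is the mean of the 3 animals of a group. The 2 females of high stress response are the highest points for HYOU1, MANF, CRELD2, SDF2L1 and DNAJC3, and the second DNAJC3 probe set shows no step between high and low stress response.

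The spread between animals was also unequal. For CRELD2 the coefficient of variation of the signal was 34.4% among animals of high stress response and 17% among those of low. In the same order it was 26.1% and 15.2% for HYOU1, 12.6% and 6.4% for HSPA5, 19.7% and 17.2% for SDF2L1, and 13.6% and 11.3% for DNAJC3. With both sexes pooled, the relative spread was thus numerically larger in the high group for all 6 genes, a difference that was not tested. Male signals of CRELD2 ran from 1720 to 1896 at high and from 1037 to 1495 at low stress response. For HYOU1 they ran from 2332 to 2780 and from 1434 to 1950. In males the range was thus narrower at high stress response for CRELD2 and HYOU1. It stayed wider there for HSPA5, MANF, SDF2L1 and DNAJC3 by its brighter probe set. On the log2 scale of the fit the SD at high over that at low stress response was 1.00 for SDF2L1 and 0.961 for the second DNAJC3 probe set. In the other genes this ratio ran from 1.29 for DNAJC3, by its brighter probe set, to 3.33 for MANF. The log2 fit has a single residual variance for both groups, so the standard errors above average over such differences.

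When the contrast was taken within each level of aggressiveness, the direction was the same in all 6 genes, each taken by its brightest probe set. The log2 fold change of stress response was 0.51 within high and 0.31 within low aggressiveness for HSPA5, 0.85 and 0.66 for HYOU1, and 0.32 and 0.45 for DNAJC3. It was 0.76 within high and 0.52 within low aggressiveness for SDF2L1, 0.78 and 0.62 for MANF, and 0.85 and 0.92 for CRELD2. The test of this difference, the interaction of stress response with aggressiveness, passed for none of the 6 genes, and 0 of them had an unadjusted p under 0.05. Interaction log2 values of these probe sets ranged from -0.14 for DNAJC3 to 0.24 for SDF2L1, and the limma adjusted p was 0.999 for each. The 95% intervals were wide, from -0.55 to 1.03 for SDF2L1, from -0.45 to 0.83 for HYOU1 and from -0.62 to 0.35 for DNAJC3. The second DNAJC3 probe set had an interaction value of 0.46, from -0.26 to 1.17, with a stress response log2 fold change of 0.18 within high and -0.28 within low aggressiveness. No probe set of 15999 passed for the interaction (0%), with 619 at an unadjusted p under 0.05. Without the arrays high-high 3 and high-low 3 the interaction values of HYOU1, MANF and SDF2L1 turned below 0, to -0.0046, -0.05 and -0.09.

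By aggressiveness, the second factor of the study, the 6 genes differed little in the fit reported and none of them passed. HSPA5 averaged 25370 ± 5404 in animals of high and 24880 ± 4111 in animals of low aggressiveness (SD, n = 6 each), and the log2 fold change was 0.02 with a 95% interval from -0.24 to 0.27. MANF averaged 9396 ± 3807 in highly aggressive and 9160 ± 2902 in less aggressive animals (SD, n = 6 each), and the log2 fold change was 0.01 with an interval from -0.30 to 0.31. HYOU1 had 0.12 with an interval from -0.18 to 0.43, and CRELD2 had 0.10 with an interval from -0.31 to 0.52. SDF2L1 had -0.01, from -0.39 to 0.37, and DNAJC3 had 0.01, from -0.22 to 0.24. The limma adjusted p was 0.9999 for every one of the 6, and 0 of 15999 probe sets passed (0%), with 515 at an unadjusted p under 0.05. The second DNAJC3 probe set had -0.18, from -0.55 to 0.18. Without high-high 3 the value was 0.05 for HYOU1 and 0.0012 for CRELD2, and without low-high 3 it was 0.25 and 0.28. The intervals of CRELD2 and of the second DNAJC3 probe set leave room for changes of more than 0.5 in log2 terms. The other intervals were narrower but held changes in both directions, so equality was not shown.

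Within high stress response alone, the log2 fold change of aggressiveness ranged from -0.06 for DNAJC3 to 0.22 for HYOU1, and within low stress response from -0.13 for SDF2L1 to 0.14 for CRELD2. None of the 6 genes passed in either, where 2 of 15999 probe sets passed within high (0.0125%) and none within low stress response (0%; 511 at an unadjusted p under 0.05, limma). Only those 2 probe sets, neither of them among the 6 genes, passed for aggressiveness in any of the 3 forms of the test.

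**Figure D2:**
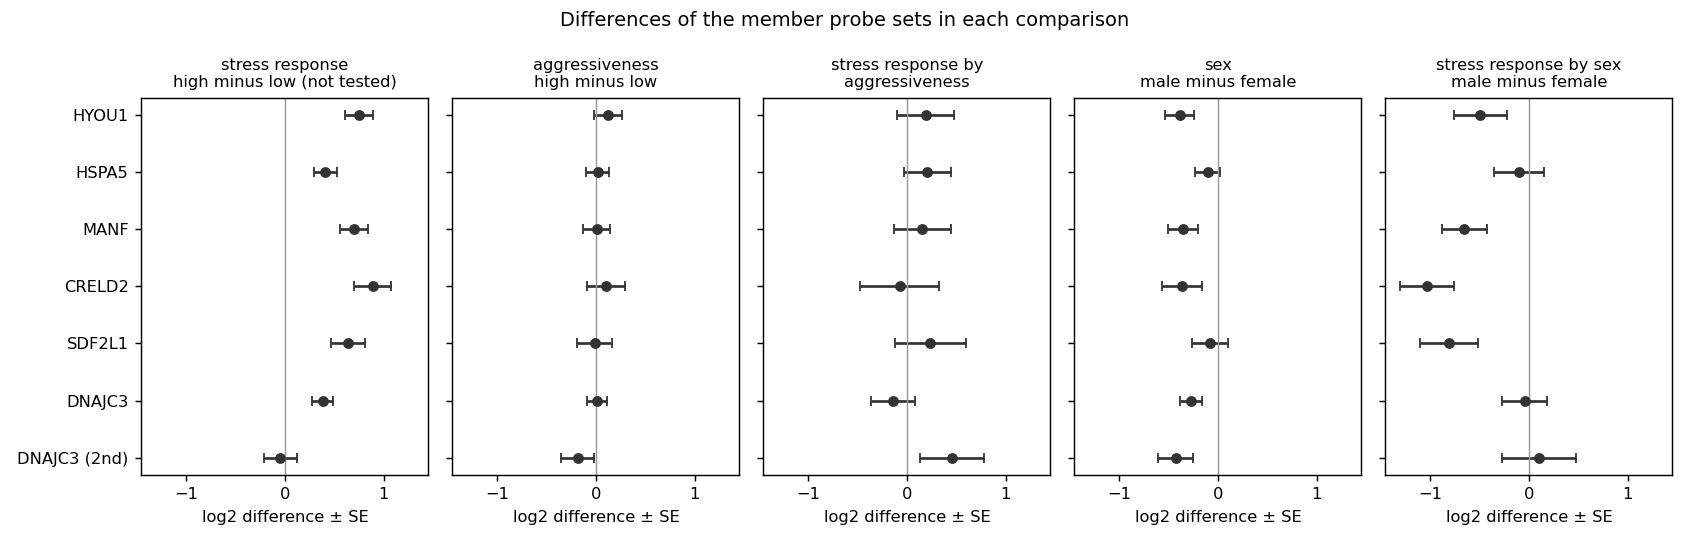
Log2 differences of the 7 probe sets in 5 comparisons: stress response and aggressiveness (high minus low), their interaction, sex and stress response by sex (male minus female). Points are limma estimates and bars are ± 1 SE. The stress response panel was not tested because it chose the genes. The points lie right of 0 there for the 6 genes, near 0 for aggressiveness and left of 0 for sex.

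Each group held 1 female and 2 males, so sex could be compared within the same fit. The log2 difference, male minus female, was below 0 in all 6 genes, with -0.39 ± 0.15 for HYOU1, -0.36 ± 0.20 for CRELD2, -0.35 ± 0.15 for MANF, -0.27 ± 0.11 for DNAJC3, -0.10 ± 0.12 for HSPA5 and -0.08 ± 0.18 for SDF2L1 (SE). None passed after adjustment (limma adjusted p from 0.922 to 0.972), and 3 of them, HYOU1, MANF and DNAJC3, had an unadjusted p under 0.05. Of 15999 probe sets 11 passed (0.0688%) and 834 (5.21%) had an unadjusted p under 0.05. Over all probe sets 41.8% lay above 0 and the median was -0.04, so a value below 0 was also the more frequent direction in general. The sex values moved with single females. Without high-high 3 they were -0.28 for HYOU1, -0.21 for CRELD2, -0.22 for MANF, -0.04 for HSPA5 and 0.05 for SDF2L1, and without low-high 3 they were -0.58 for HYOU1, -0.62 for CRELD2, -0.51 for MANF, -0.17 for HSPA5 and -0.33 for SDF2L1. DNAJC3 moved less, to -0.28 and -0.24.

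The female values were split by stress response. At high stress response both females lay above all 4 males in 5 of the 6 genes, HSPA5 being the exception, where this held for 6.87% of all 15999 probe sets. At low stress response both females lay above all 4 males in 1 of the 6 genes, DNAJC3, where this held for 11.8% of probe sets. This comparison was added after the data were seen, the 6 genes move together across animals, and the 5 are therefore not independent results.

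The log2 fold change of stress response was 0.54 in males and 1.57 in females for CRELD2, a difference of -1.03 ± 0.27 (SE; limma adjusted p = 0.657 over 15999 probe sets). It was 0.37 in males and 1.18 in females for SDF2L1, a difference of -0.81 ± 0.29 (SE; limma adjusted p = 0.741). For MANF it was 0.48 in males and 1.13 in females, a difference of -0.65 ± 0.23 (SE; limma adjusted p = 0.741). The values for HYOU1 were 0.59 in males and 1.08 in females (adjusted p = 0.821), for HSPA5 0.38 and 0.48 (adjusted p = 0.969), and for DNAJC3 0.37 and 0.41 (adjusted p = 0.989). None of the 6 passed, nor did any of 15999 probe sets (0%), with 1025 at an unadjusted p under 0.05.

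The female contrast rests on 2 animals a side, and leaving out either low female moved it, in opposite directions. Without low-high 3 the stress response by sex difference was -0.72 for CRELD2, -0.43 for SDF2L1, -0.46 for MANF and -0.15 for HYOU1. Without low-low 1 it was -1.33 for CRELD2, -1.19 for SDF2L1, -0.84 for MANF and -0.83 for HYOU1. Without high-high 3 and high-low 3, the arrays that an earlier look at these data found to stand apart, it was -1.06 for CRELD2, -0.69 for SDF2L1, -0.57 for MANF and -0.37 for HYOU1. That fit kept low-high 3, whose median correlation with the other arrays was below that of high-low 3.

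Among males alone the 4 animals of high stress response lay above the 4 of low in all 6 genes, where this held for 2.51% of probe sets. The contrast is again the one that chose the genes. Its size in males, however, was more than 1.5 times smaller for CRELD2, 0.54 against 0.89 in the fit of all animals, and for SDF2L1, 0.37 against 0.64. Without high-high 3 and high-low 3 the log2 fold changes were 0.80 for CRELD2, 0.71 for HYOU1, 0.62 for MANF, 0.62 for SDF2L1, 0.35 for DNAJC3 and 0.32 for HSPA5, and 4 of the 6 genes again had no overlap, where 0.613% of probe sets had none.

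Single measures of RNA quality moved with some of these values. The log2 ratio of 3' to 5' signal of the actin control probe sets was lowest in high-low 1 (4.49) and high-high 3 (4.67), the same females that led the high group, and lay between 4.94 and 5.44 in the other 10 arrays. The EF1A and GAPDH ratios did not set both females apart. They were 0.736 and 0.741 in high-low 1 and 0.933 and 0.948 in high-high 3. The mean of the actin, EF1A and GAPDH ratios was 1.99 in high-low 1 and 2.18 in high-high 3. It lay between 2.15 and 2.40 in the other 10 arrays. The actin ratio averaged 5.01 ± 0.37 in the high stress response group and 5.17 ± 0.11 in the low group (SD, n = 6 each; exact permutation test, two-sided, p = 0.320, adjusted p = 0.816 over 8 tests). With the actin ratio as a covariate the log2 fold changes of stress response were 0.71 for CRELD2, 0.69 for HYOU1, 0.58 for MANF, 0.55 for SDF2L1, 0.36 for HSPA5 and 0.34 for DNAJC3. The stress response by sex difference was then -0.84 for CRELD2, -1.01 for SDF2L1 and -0.47 for MANF. The sex difference, male minus female, was then -0.26 for HYOU1, -0.19 for DNAJC3, -0.11 for MANF, -0.00029 for HSPA5, 0.0010 for CRELD2 and 0.10 for SDF2L1. The log2 ratio of EF1A was 0.892 ± 0.088 with high aggressiveness and 0.721 ± 0.026 with low aggressiveness (SD, n = 6 each; exact permutation p = 0.00216, adjusted p = 0.0173), so this ratio differed between the groups of aggressiveness. With the mean of the actin, EF1A and GAPDH ratios as a covariate, the log2 fold changes of aggressiveness were 0.30 for CRELD2 and 0.21 for HYOU1. They were 0.12 for MANF, 0.10 for SDF2L1, 0.05 for HSPA5 and 0.03 for DNAJC3, and none passed (limma). The EF1A ratio alone was not used as a covariate.

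The 6 genes were then compared with each other in pairs. Across the 6 animals of high stress response, all 15 pairs of genes had a Pearson r above 0 on the log2 scale, from 0.221 for HSPA5 with SDF2L1 to 0.990 for MANF with CRELD2, with a median of 0.813. For MANF with CRELD2 the exact permutation p was 0.0056 and the adjusted p 0.111 over 30 relations, and Spearman's rho was 0.943. None of the 15 passed after adjustment, with 6 at an unadjusted p under 0.05. With the 2 animals farthest from the median of the first gene left out the median r was -0.033 and the range ran from -0.807 to 0.924. The r of MANF with CRELD2 was then 0.901 and that of MANF with DNAJC3 0.924. Few animals remain in these values, and the animals left out can differ with the first gene. Cutting its range can lower r by itself, so these values do not show which animals the relations rest on.

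At low stress response, 11 of the 15 pairs had an r above 0, from -0.802 for SDF2L1 with DNAJC3 to 0.790 for HSPA5 with MANF, with a median of 0.466. None passed after adjustment and 1 had an unadjusted p under 0.05, CRELD2 with SDF2L1 (r = 0.770, exact permutation p = 0.0111, adjusted p = 0.111). Without the 2 animals farthest from the median the median r was 0.271, from -0.777 to 0.919. The difference in correlation between the stress response groups was not tested.

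After the 4 group means and sex were taken out of every gene, the 15 pairs had a median r of 0.560 over 12 arrays, as a description, while the median of the 6 genes with the 5804 other genes was -0.022. HYOU1 with SDF2L1 had 0.946, MANF with CRELD2 0.939, HYOU1 with CRELD2 0.926 and CRELD2 with SDF2L1 0.923. The stress response by sex pattern was not taken out, so these values still hold it. Its differences were largest in these same genes, at -1.03 for CRELD2, -0.81 for SDF2L1, -0.65 for MANF and -0.49 for HYOU1. HSPA5 was closest to DNAJC3, its J protein partner, with 0.598. With the 4 remaining genes DNAJC3 had values from -0.283, with SDF2L1, to 0.161, with MANF.

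**Figure D3:**
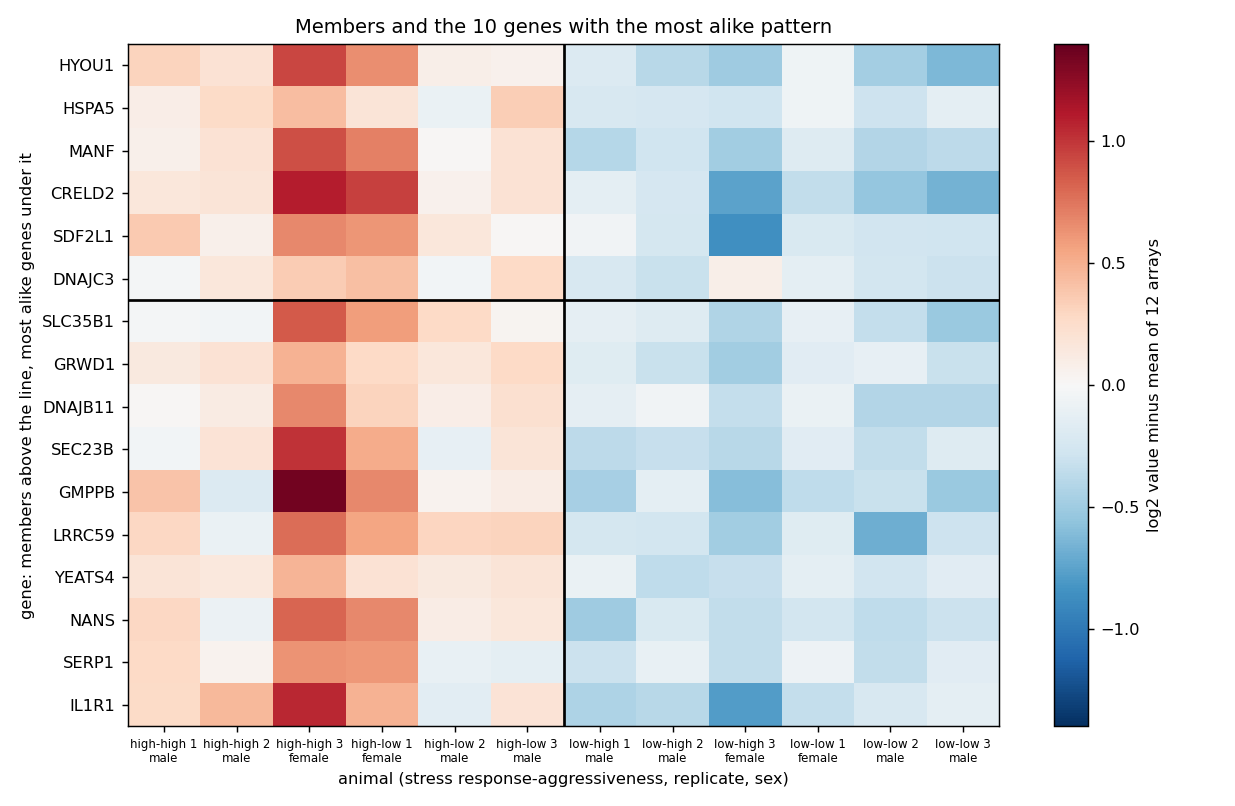
Log2 value minus the gene's mean over the 12 arrays (colour scale, red above and blue below the mean) for the 6 genes, above the line, and for the 10 other genes most like them, below it. Columns are animals, high stress response at the left, named by stress response, aggressiveness and replicate, with sex. The darkest red lies in the females high-high 3 and high-low 1, and the low animal low-high 3 is the darkest blue for SDF2L1.

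The other genes with the most similar pattern over the 12 arrays, ranked by the median r with the 6 genes among 5804, were SLC35B1 (0.900), GRWD1 (0.899), DNAJB11 (0.897), SEC23B (0.895), GMPPB (0.894), LRRC59 (0.894), YEATS4 (0.892), NANS (0.888), SERP1 (0.884) and IL1R1 (0.879). These values share the stress response contrast with the choice of the 6 genes, and the log2 fold changes of the 10 for stress response ran from 0.44 to 0.79. DNAJB11 is an ER J protein, SEC23B a subunit of the COPII coat that carries cargo out of the ER, SLC35B1 an ER nucleotide transporter and SERP1 an ER membrane protein linked to translocation. GMPPB makes GDP-mannose, NANS works in sialic acid synthesis and IL1R1 is the interleukin 1 receptor. No role is given here for GRWD1, LRRC59 and YEATS4, and nothing is read from the roles named.

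With group means and sex taken out, the ranking was another one, led by TFB1M (0.892), MAP7D1 (0.874), WDR83 (0.874), SRI (0.869) and CATSPER2 (0.860), followed by CDK5, PCBP4, ATP6V1C1, EXOSC1 and BCAT1 (0.830). The stress response by sex pattern was left in these values too. None of the first 10 genes is in this second list, and the stress response log2 fold changes of the second 10 ran from -0.31 for ATP6V1C1 to 0.72 for WDR83.

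The rest of the ER folding machinery and of the unfolded protein response was described from lists of 73 genes, of which 37 had a kept probe set. For stress response 30 of the 37 had a log2 fold change above 0 and 7 below, with a median of 0.14, where 55.7% of all probe sets lay above 0 and their median was 0.03. None of the 37 passed after adjustment and 10 had an unadjusted p under 0.05, where 8.16% of all probe sets did. DNAJB11 was the only one of the 37 without overlap between the groups. Without high-high 3 and high-low 3 the count was again 30 of 37, with a median of 0.11, where 51.5% of all probe sets lay above 0 with a median of 0.0068. In males alone it was 29 of 37, with a median of 0.08, where 58.8% of all probe sets lay above 0 with a median of 0.05. The lists were chosen with earlier results of these data known, and whether the 37 genes vary independently was not tested. Nothing is therefore read from these counts.

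Among 8 other ER folding factors 7 lay above 0, with a median of 0.21. HSPA13, a microsomal HSP70 relative, had signals of 638.9 ± 314.6 in the high group and 337 ± 69.6 in the low group (SD over 6 animals each), and its log2 fold change was 0.80 ± 0.22 (SE; limma adjusted p = 0.523). HSP90B1 (GRP94), the HSP90 of the ER, had 0.32 (adjusted p = 0.576), the lectin chaperone CALR 0.31 (adjusted p = 0.572) and the prolyl isomerase FKBP2 0.01 (adjusted p = 0.992). The J proteins DNAJB9 and DNAJB11 had 0.48 and 0.47 (adjusted p = 0.586 and 0.523), and all 3 measured ER J proteins lay above 0.

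In disulfide formation 7 of 9 genes lay above 0, and their median was 0.10. The disulfide isomerases PDIA3 and PDIA4 had 0.33 and 0.26 (limma adjusted p = 0.545 and 0.614), TXNDC12 had 0.03 (adjusted p = 0.988), and the oxidase ERO1A, dim on this array at 56 ± 23.2 in the high group and 76.3 ± 38.1 in the low group (SD over 6 animals each), had -0.28 (adjusted p = 0.893). All 5 measured genes of ER-associated degradation lay above 0, with a median of 0.19. SELENOS, a membrane component of the retrotranslocation complex, had 0.52 ± 0.14 (SE), the lectin ERLEC1 0.47 ± 0.14 (SE; adjusted p = 0.523 for both), DERL1 0.19 and the ATPase VCP 0.07.

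Of 7 sensors and transcription factors 6 lay above 0, with a median of 0.11. DDIT3 (CHOP) had signals of 506.3 ± 159 in the high group and 326.4 ± 32.5 in the low group (SD over 6 animals each), and its log2 fold change was 0.56 ± 0.19 (SE; limma adjusted p = 0.537). ATF4 had 0.25, YY1 0.14 and ATF6B 0.02 (adjusted p = 0.577, 0.857 and 0.976). XBP1, whose active form is made by splicing of its transcript, had 0.11 ± 0.11 (SE), and the array signal used here does not separate its spliced form.

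In the list of genes linked to PERK output 2 of 5 lay above 0, with a median of -0.03. This list leaves out ATF4 and DDIT3, counted above among the transcription factors at 0.25 and 0.56, so it does not describe PERK signalling as a whole. PPP1R15A (GADD34), which restores translation, had -0.51 ± 0.35 (SE), ATF3 0.46 ± 0.25, EIF2S1, the alpha subunit of eIF2, 0.26 ± 0.13, and ASNS, the asparagine synthetase, -0.03 ± 0.17 (limma adjusted p = 0.740, 0.670, 0.655 and 0.986). Of the HSP70 and HSP110 genes outside the ER all 6 measured lay above 0, with a median of 0.14, below that of the 6 ER genes (0.67), which were chosen on this contrast. HSPA9, the mitochondrial HSP70, had signals of 12390 ± 1054 in the high group and 10700 ± 266.3 in the low group (SD over 6 animals each), and its log2 fold change was 0.21 ± 0.10 (SE; limma adjusted p = 0.641). For HSPA9 too, all 6 animals of high stress response lay above all 6 of low, where this held for 0.388% of probe sets. HSPA2 had 0.53 ± 0.41 (SE, limma adjusted p = 0.782), HSPA4 0.17 and HSPH1 0.04. HSPA2 was dim, at 58.2 ± 26.6 in the high group and 36.5 ± 22.6 in the low group (SD over 6 animals each).

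For aggressiveness, 21 of the 37 genes lay above 0 and 16 below, with a median of 0.03, where 52.0% of all probe sets lay above 0. None passed and 0 had an unadjusted p under 0.05 (limma). For the interaction 22 lay above 0 and 15 below, with a median of 0.04, where 49.4% of all probe sets lay above 0. None passed and 2 had an unadjusted p under 0.05 (limma).

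**Figure D4:**
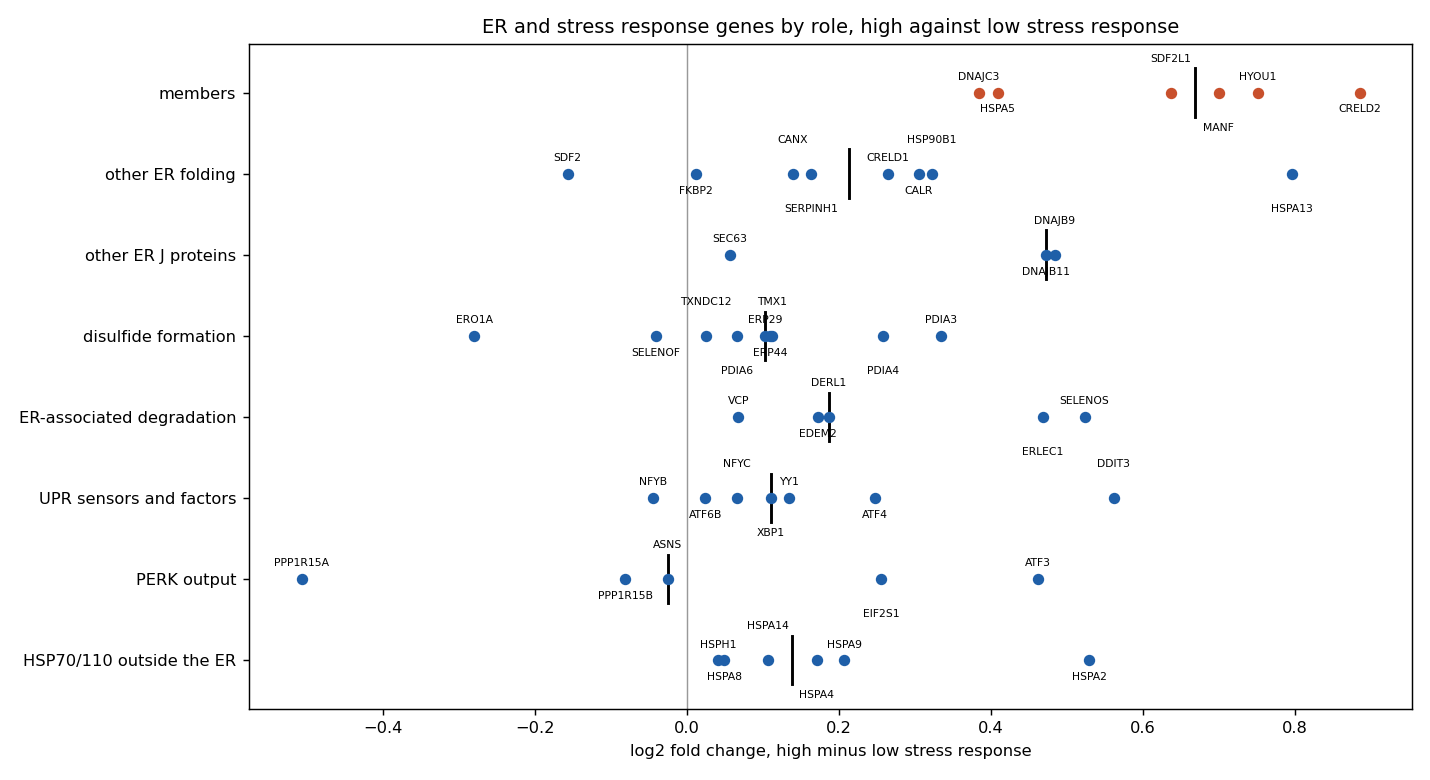
Log2 fold change of stress response (high minus low, x axis) of the 6 genes, orange, and of listed ER, unfolded protein response and other HSP70 and HSP110 genes, blue, in rows by role. Each point is 1 gene and the black bar is the row's median. The 6 genes lie between 0.38 and 0.89, and the listed others are spread around lower medians, with PPP1R15A at -0.51 as the lowest.

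Markers of other cell types were read beside these values. Of 10 hepatocyte markers 9 were measured, and their summed signal ran from 329700 to 376000 at high and from 291700 to 438000 at low stress response, with a median log2 fold change of 0.07, so the tissue carried the markers of liver in both groups. Plasma cells, which are rich in ER, had 1 of 11 markers measured, JCHAIN, at -0.24. The 4 plasma and B cell markers on the array, with those under the filter, summed to 757.1 to 1125 at high and 755.4 to 1761 at low stress response. None of the 5 pancreatic markers on the array was above the filter on low signals, and their sum was 58 to 159.9 at high and 77.7 to 211.3 at low stress response. The 5 of 8 measured markers of T and NK cells had a median of -0.01. The 6 of them on the array summed to 750.4 to 945.7 at high and 667.2 to 1205 at low stress response. The 6 of 9 measured Kupffer cell and macrophage markers had a median of -0.04 and sums from 18590 to 24400 at high stress response and from 17520 to 22790 at low stress response, with CD163 at 0.57 and MARCO at -0.78 (limma adjusted p = 0.523 for both). The median log2 fold change of markers was 0.23 for neutrophils (3 of 7 measured), 0.17 for red blood cells (3 of 5), 0.04 for stellate cells (6 of 8), -0.08 for endothelial cells (6 of 8) and -0.32 for cholangiocytes (3 of 6). The cholangiocyte markers went both ways, with PROM1 at -1.07 and EPCAM at 0.13 (limma adjusted p = 0.523 and 0.903). The part of these cell types in the values of the 6 genes was not tested.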

How the data were processed

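The deposited values were Affymetrix probe set signals on a linear intensity scale, for which the submitters' processing notes name GCOS 1.1.1. Probe summary and scaling are not given in the sources used here, and the mean signal after trimming 2% was about 500.2 on every array, so arrays had been scaled before deposit. All 12 columns were used. Gene symbols came from the platform annotation: 10099 probe sets had 1 symbol, 198 several and 13826 none. Where several probe sets of a gene were kept, the one with the highest mean stood for it.

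Of 24123 probe sets, 124 controls and the lowest 33.3% of the other 23999 by mean were left out, leaving 15999, and all 7 probe sets of the 6 genes were kept. Values were log2(signal + 16). limma 3.58.1 (R 4.3.3) was fitted to stress response, aggressiveness and sex (8 residual degrees of freedom), and with an interaction term (7). Adjustment was Benjamini-Hochberg over 15999, with 0.05 as the threshold, and the same values gave the SE. Exact permutation tests for pairs and RNA quality used scipy 1.17.1 (Python 3.11.15), and figures matplotlib 3.10.9. The fit was tested on simulated data.

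The 6 genes and all lists were chosen with earlier results of these data known. Named from each list were the 3 genes with the largest and the 1 with the smallest absolute log2 fold change for stress response (the largest 2 in lists under 5), and the 10 genes most alike by each measure. XBP1, JCHAIN, CD163, MARCO, PROM1 and EPCAM were named after their values were seen. Alternatives were other constants (1, 64), filters, scalings, variance estimates, array weights, covariates, males only, averaged probe sets and each animal left out. Another left out both arrays that stood apart in an earlier look, high-high 3 and high-low 3, and kept low-high 3. The 3' to 5' covariates, the stress response by sex term and the counts without some animals were added after the data were seen. The number of arrays limits the precision.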

Additional observations from a re-analysis of the deposited data

Results flagged for a closer look

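SDF2L1 at low stress response was the 1 result of 28 sets of 6 animals (7 probe sets by high and low levels of stress response and of aggressiveness) in which a single animal stood far from the others. The female low-high 3 had a signal of 1878, against 2811 to 3309 in the 5 other animals of low stress response. The gap to the nearest animal was 0.712 of the range, above Dixon's 95% critical value for 6 samples, which chance alone exceeds in about 1 in 20 sets. Without low-high 3 the log2 fold change of stress response for SDF2L1 was 0.47, against 0.64 with it. The array of low-high 3 had a median correlation of 0.955 with the other arrays, near the lowest, 0.954 for high-high 3.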

How the results depend on the processing

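No paired analysis was possible because the labels give no replicate numbers shared between groups. With 3 animals a group and 8 residual degrees of freedom, differences near 0 change sign easily, and a value without a call shows no equality. The log2 fold changes of stress response kept their sign in all 6 genes under all 15 alternatives, ranging over them from 0.54 to 0.89 for CRELD2, 0.59 to 0.76 for HYOU1, 0.48 to 0.74 for MANF, 0.37 to 0.67 for SDF2L1, 0.32 to 0.41 for HSPA5 and 0.17 to 0.39 for DNAJC3. They also kept it in all 12 fits without 1 animal (CRELD2 0.71 to 0.97, HYOU1 0.62 to 0.81, MANF 0.59 to 0.75, SDF2L1 0.47 to 0.71, HSPA5 0.36 to 0.47, DNAJC3 0.34 to 0.42). In every gene but DNAJC3 the lowest of these values came without low-high 3. Averaging both probe sets moved DNAJC3 to 0.1689, and its second probe set alone had -0.05 in the fit reported. The genes were chosen on this contrast in the same arrays, so nothing is read from the kept signs.

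None of the 6 genes passed for aggressiveness, the interaction, sex or stress response by sex under any alternative; the smallest adjusted p was 0.388, for HYOU1 and sex, and 0.4321 for stress response by sex. Signs turned as follows, and the cause was not tested. For aggressiveness: without both arrays that stood apart CRELD2 -0.0141 and MANF -0.08821; in males DNAJC3 -0.02043 and SDF2L1 0.1271; with averaged probe sets DNAJC3 -0.08634; with median centring DNAJC3 -0.008027, HSPA5 -0.001593 and MANF -0.0124; with quantile normalization HSPA5 -0.01263, MANF -0.0002515 and SDF2L1 0.001056; with the actin and mean 3' to 5' covariates SDF2L1 0.001895 and 0.1013. Leaving out 1 animal or both arrays gave -0.0141 to 0.2751 for CRELD2, -0.02227 to 0.06197 for DNAJC3, -0.04226 to 0.06191 for HSPA5, -0.08821 to 0.1142 for MANF and -0.1666 to 0.1541 for SDF2L1. For the interaction: CRELD2 0.07438 (actin), 0.2213 (mean covariate) and 0.001304 (median centring), DNAJC3 0.1593 (averaged probe sets), HYOU1 -0.07427 and MANF -0.01799 (males), and without both arrays HYOU1 -0.004568, MANF -0.04528 and SDF2L1 -0.09063. Leaving out 1 animal gave -0.4833 to 0.1307 for CRELD2, -0.07328 to 0.3518 for HYOU1, -0.06816 to 0.2778 for MANF and -0.1146 to 0.4333 for SDF2L1. For sex: CRELD2 0.001032 and SDF2L1 0.1015 (actin), SDF2L1 0.01487 (mean covariate) and 0.0981 (without both arrays), and -0.3341 to 0.04928 for SDF2L1 without 1 animal. For stress response by sex: DNAJC3 0.2037 and HSPA5 0.1533 (actin) and DNAJC3 0.04561 (mean covariate), and without 1 animal or both arrays -0.1975 to 0.08119 for DNAJC3 and -0.2461 to 0.04674 for HSPA5.

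Counts of probe sets past the threshold stayed at 0 for aggressiveness. The interaction had 2 without both arrays and 0 to 1 without 1 animal; stress response had 0 to 1 without 1 animal. Sex had 7, against 11, with more low signals left out. Stress response by sex had 1 with a constant of 64, with more low signals left out, with median centring and with trend and robust variance, and 0 to 5 without 1 animal. Aggressiveness within high stress response, 2 in the fit reported, had 1 with median centring or quantile normalization, and 0 with a constant of 64, no filter, more low signals left out, males only, no sex term, trend and robust variance or without both arrays, and 0 to 2 without 1 animal.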
